A study of Homo sapiens with 6 samples.

Results

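The guide RNAs (gRNAs) described here target factors that assemble ribosomes in the nucleolus. They were chosen by gene symbol, as every gRNA to a gene named UTP or NOP with a number, and those to FCF1, IMP3, IMP4, MPHOSPH10, FBL, DKC1, NHP2, BOP1, PES1, WDR12, RRP9 and NOB1. This gave 112 gRNAs to 28 genes, 4 per gene, out of 77441 gRNAs to 19364 genes in the Brunello library, a pooled genome-wide knockout library. All samples are IMR32 cells, an established MYCN-amplified neuroblastoma line, that express Cas9 and carry this library. They were grown alone, with human lymphocytes depleted of CD14+ cells (coculture), or with these lymphocytes and 10 µg/ml nivolumab, an antibody that blocks PD-1, with 2 libraries per condition. Adherent cancer cells were harvested on day 5 and the gRNAs in their genomic DNA were sequenced. Each value is thus a frequency of cells that carry a gRNA and not an RNA level. Whether a gRNA knocked out its gene was not measured. Replicates 1 and 2 belong to lymphocyte donors 1 and 2. The donors may also differ in the ratio of lymphocytes to cancer cells, since the screens were run at a high and a low ratio and the labels do not tie either to a number. The control libraries are the same Cas9-expressing cells without lymphocytes and are numbered the same way.

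A ribosome is built in the nucleolus from a long precursor RNA. The U3 small nucleolar RNP and the UTP proteins fold onto this precursor as the small subunit processome, which guides its cleavage and the folding of 18S rRNA. Box C/D and box H/ACA RNPs modify the rRNA, and other factors, the PES1, BOP1 and WDR12 complex among them, shape the large subunit. Dividing cells depend on this pathway, and MYC proteins are known to raise its activity. The sequences of the gRNAs were not used here, so they are named by gene and number only.

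Abundance was read against 1496 gRNAs to 374 olfactory receptor genes, which these cells are not known to need. The level of a gRNA is log2 of its normalized reads minus the median over the olfactory receptor gRNAs of the same library, so that a level of 0 is that median, and the level of a gene is the median over its 4 gRNAs. No starting pool was analysed, so that a gRNA lost during culture and a gRNA that was scarce in the library from the start cannot be told apart. The 6 libraries held 58554842 to 79924251 reads. The median gRNA to an assembly factor had 361.5 to 527 reads, and the median olfactory receptor gRNA had 831 to 1147.

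In IMR32 alone, cells that carried gRNAs to most assembly factors were scarce. The median level of the 112 gRNAs was -1.11 in replicate 1 and -1.19 in replicate 2, that is 46.3% and 43.7% of the olfactory receptor median, while the median over all gRNAs was -0.21 and -0.23. A gRNA was called low in a condition when it lay below the 5th percentile of the olfactory receptor gRNAs in both libraries, at levels of -1.31 and -1.37 in IMR32 alone. This held for 34 of the 112 gRNAs, against 7.88% of all gRNAs. Of the 28 genes, 25 lay below the 5th percentile of olfactory receptor genes, as 16.9% of all genes did, and 20 were in the lowest 10% of all genes. These are descriptions without a test, since the gRNAs of a gene share their target and the genes were chosen with earlier results of these data known.

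The scarcity was present with and without lymphocytes. In coculture the median levels were -1.12 and -1.20, with 35 of 112 gRNAs low against 8.08% of all gRNAs. With nivolumab they were -1.13 and -1.14, with 40 low against 8.17%. Low in all 6 libraries were 26 gRNAs (6.26% of all gRNAs), and 50 were low in none. The level was below 0 in all 6 libraries for 102 of 112 gRNAs (51.0% of all gRNAs) and for 27 of 28 genes (57.4% of all genes). UTP14C was the exception among the genes.

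Among the large subunit factors PES1 had the lowest level of all 28 genes. PES1 (chromosome 22 of GRCh38, 30576625 to 30607083, minus strand) forms the PeBoW complex with BOP1 and WDR12. Its level was -1.89 and -2.01 in IMR32 alone, 25.9% of the olfactory receptor median, and it ranked 76 from the lowest of 19364 genes. In coculture the level was -1.55 and -1.90, and with nivolumab it was -1.31 and -1.55. Every value with nivolumab was thus higher than both values of IMR32 alone, while coculture overlapped with each of them. How many of all genes separate conditions in this way was not counted, here or for the genes below. The 4 gRNAs did not share 1 level. In IMR32 alone PES1_2, PES1_3 and PES1_4 were low, with 148 to 265 reads per library, whereas PES1_1 had 1087 and 920 reads and a mean level of 0.11, at the olfactory receptor median. At least 3 low gRNAs were found for PES1 and NOP2 only among the 28 genes, and for 0.816% of all genes.

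The partners of PES1 were less scarce. WDR12 had a level of -0.75 ± 0.02 (SD, n = 2) in IMR32 alone, but -0.61 and -1.02 in coculture and -0.37 and -0.85 with nivolumab. BOP1 had -0.34 and -0.57 in IMR32 alone, -0.64 and -0.65 in coculture and -0.49 and -0.42 with nivolumab. Neither gene had a low gRNA in IMR32 alone, and the scarcest gRNA of BOP1, BOP1_4, was at -0.98 and -1.33. In IMR32 alone the gene levels of the 3 members of 1 complex differed by more than their replicates did. They went from 25.9% of the olfactory receptor median for PES1 to 59.4% for WDR12 and 72.8% for BOP1. The gRNAs of the 3 genes overlapped, however. They lay between -2.37 and 0.11 for PES1, -1.36 and 0.47 for WDR12, and -1.16 and 0.19 for BOP1. Whether the genes differ beyond this spread was not tested. In coculture and with nivolumab the values of WDR12 lay on either side of those of BOP1.

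NOP2, a methyltransferase of 28S rRNA, had levels of -1.43 and -1.72 in IMR32 alone, -1.29 and -1.44 in coculture and -1.51 and -1.63 with nivolumab. NOP2_3 was its scarcest gRNA, with 132 and 70 reads in IMR32 alone and 62 to 167 in the other libraries. NOP16, a nucleolar protein of large subunit precursors, had -1.29 and -1.66 in IMR32 alone, -1.18 and -1.53 in coculture and -1.25 and -1.33 with nivolumab. NOP2 lay higher in coculture than with nivolumab in both libraries, and the other ranges of these genes overlapped.

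The 7 genes of the U3 RNP and the Mpp10 complex had levels from -1.50 (IMP4) to -1.05 (MPHOSPH10) in IMR32 alone. Of their 28 gRNAs 9 were low, against 30.4% of the 112 gRNAs and 7.88% of all gRNAs, and the other 19 were not. IMP4, IMP3 and MPHOSPH10 form the Mpp10 complex, which joins the U3 RNA to the precursor. IMP4 had levels of -1.42 and -1.59 in IMR32 alone, -1.35 and -1.78 in coculture and -1.53 and -1.70 with nivolumab. IMP3 had -1.33 and -1.17, then -1.46 and -1.47, and then -1.52 and -1.36 in the same order of conditions. All 4 values of IMP3 with lymphocytes lay below both values of IMR32 alone, as did those of DKC1 and NOP10. For NHP2 and UTP15 all 4 lay above both. The share of all genes that separate in this way was not counted, so no result is read from it. MPHOSPH10 had -1.05 ± 0.09 (SD, n = 2) in IMR32 alone with no low gRNA, since its 4 gRNAs lay close together between -1.21 and -0.84.

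RRP9, a protein particular to the U3 RNP, had levels of -1.21 and -1.74 in IMR32 alone, -1.50 and -1.79 in coculture and -1.37 and -1.67 with nivolumab. Its replicates were among the farthest apart, with an SD of 0.37 in IMR32 alone, and the 3 conditions overlapped. The core proteins of all box C/D RNPs followed, with NOP58 at -1.46 ± 0.25, NOP56 at -1.39 ± 0.28 and FBL, the fibrillarin methyltransferase, at -1.30 ± 0.34 in IMR32 alone (SD, n = 2 each). FBL had -1.05 and -1.54 in IMR32 alone, -1.31 and -1.64 in coculture and -1.0 and -1.44 with nivolumab. Its scarcest gRNA, FBL_2, had 125 to 247 reads in the 6 libraries. FBL_1 stayed between -0.77 and -0.46, so that the gRNAs of FBL also differed from each other more than the libraries did.

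The UTP proteins spanned the whole range. UTP18 and UTP6 belong to UtpB, an early building block of the processome. UTP18 was the second lowest gene, with levels of -1.78 and -1.51 in IMR32 alone, -1.53 and -1.15 in coculture and -1.64 and -1.26 with nivolumab. It is the only gene of the 8 lowest in which replicate 2 was higher than replicate 1 in every condition. UTP18_4 had 103 to 184 reads, and UTP18_1 lay between -0.80 and -0.65 in all libraries. UTP6 had -1.05 ± 0.40 (SD, n = 2) in IMR32 alone, the largest SD of the 28 genes.

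UTP15 belongs to UtpA, the block that binds the precursor first and is also tied to rDNA transcription. Its levels were -1.23 and -1.26 in IMR32 alone, -0.93 and -1.07 in coculture and -1.15 and -1.15 with nivolumab. Coculture did not overlap with the other conditions, which also held for BOP1 and DKC1. How many of all genes do so was not counted. UTP15 was the only gene whose gRNAs differed by over 4 on the log2 scale. UTP15_3 had 64 and 19 reads in IMR32 alone, 164 and 54 in coculture and 57 and 87 with nivolumab, the lowest reads of any of the 112 gRNAs, while UTP15_4 had 414 to 1018. No gRNA to an assembly factor had fewer than 20 reads in all libraries.

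UTP23 and FCF1 are related proteins with a PIN domain, and FCF1 is the nuclease that cuts the precursor ahead of 18S rRNA. UTP23 had levels of -1.34 and -1.81 in IMR32 alone, -1.62 and -1.48 in coculture and -1.41 and -1.56 with nivolumab. UTP23_3, with 57 to 129 reads, was far below the others, which had 232 to 643. FCF1 (chromosome 14, 74713144 to 74738620, plus strand) had levels of -1.27 and -1.73 in IMR32 alone, -1.38 and -1.33 in coculture and -1.67 and -1.65 with nivolumab. Both values with nivolumab lay below both of coculture, while the values of IMR32 alone spanned all 4 of them. FCF1_3 and FCF1_4 were low in all 6 libraries and FCF1_1 in none. Of 50 candidate target sites in the coding sequence of FCF1 (20 bases followed by NGG, GRCh38 with GENCODE v44), 30 have a second perfect copy elsewhere in the genome. FCF1 is not alone in this, since 32 of 66 sites of NHP2, 79 of 168 of NOB1 and 28 of 108 of WDR12 also have a second copy. Whether the gRNAs of these genes are at such sites was not tested.

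The remaining processome factors were higher than UTP23 and FCF1. In IMR32 alone UTP11L (now UTP11) had -1.36, NOP14 -1.12, UTP20 -1.09 and UTP3 -0.73. UTP3 had -0.65 and -0.82 in IMR32 alone, -0.61 and -1.13 in coculture and -0.79 and -1.04 with nivolumab. Its gRNAs lay close together, between -0.93 and -0.47 in IMR32 alone, and none was low in any condition.

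The paralogues UTP14A and UTP14C were the highest genes. UTP14A (chromosome X, 129906121 to 129929761) is the broadly expressed gene and UTP14C (chromosome 13, 52024691 to 52033600) is a retrocopy of it. UTP14A had levels of -0.12 and -0.15 in IMR32 alone, -0.11 and -0.27 in coculture and -0.08 and -0.20 with nivolumab. UTP14C had -0.05 and 0.14, -0.10 and -0.04, and -0.18 and 0.23 in the same order. Both genes had no low gRNA, and they were 91.0% and 103% of the olfactory receptor median. Their coding sequences share many candidate sites, since 95 of the 258 sites of UTP14A are also in UTP14C, and 97 of the 298 of UTP14C are also in UTP14A. A gRNA at a shared site could cut both genes, and which of the 8 gRNAs do so was not tested. UTP14C_4 stood apart at a level of -0.97 in IMR32 alone, with 439 to 537 reads in the 6 libraries, while UTP14C_1 had 1199 to 1539.

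The box H/ACA proteins bind the RNAs that guide pseudouridylation and are also part of telomerase. NHP2 had levels of -1.49 and -1.52 in IMR32 alone, -1.41 and -1.40 in coculture and -1.34 and -1.46 with nivolumab. Its replicates differed little, and NHP2_3 and NHP2_4 were low in all 6 libraries whereas NHP2_2 was at -0.18 in IMR32 alone. NOP10 had -0.83 ± 0.04 and DKC1, the pseudouridine synthase itself, -0.76 ± 0.06 (SD, n = 2 each) in IMR32 alone. Both gene levels were higher than that of NHP2 by more than these SDs, which leave out the spread between gRNAs. The gRNAs of these genes overlapped in IMR32 alone. They lay between -2.40 and 0.10 for NOP10, -1.55 and -0.18 for DKC1, and -2.06 and -0.18 for NHP2. A second perfect copy exists for 32 of 66 candidate sites in NHP2, against 1 of 18 in NOP10 and 2 of 152 in DKC1. Whether this bears on their levels was not tested. Of the gRNAs to DKC1, DKC1_4 was low in all 6 libraries and DKC1_2 and DKC1_3 were both at -0.18 in IMR32 alone.

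NOB1, the nuclease that finishes the end of 18S rRNA in late small subunit precursors, had levels of -1.02 and -1.40 in IMR32 alone, -1.20 and -1.68 in coculture and -1.25 and -1.28 with nivolumab. NOB1_1 had 101 to 167 reads in every library, and NOB1_2 had 610 to 1059. NOP9, an RNA-binding protein, had -0.78 and -0.67 in IMR32 alone, -0.64 and -0.91 in coculture and -0.90 and -0.86 with nivolumab. NOP9_1 lay above the olfactory receptor median in all 6 libraries, with 981 to 1439 reads.

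The order of the 28 genes in IMR32 alone is coarse. The SD between its 2 libraries was 0.02 to 0.40 per gene, with a median of 0.15. Of the 27 neighbouring pairs in the order, 22 were closer than the larger SD of the pair. The 5 wider steps were those from PES1 to UTP18, from NOP10 to DKC1, and from NOP9 to BOP1, on to UTP14A and on to UTP14C. At least 1 low gRNA was found for 21 genes (25.8% of all genes) and at least 2 for 11 genes (4.76% of all genes), and no gene had 4. The gRNAs of a gene spanned a median of 1.54 on the log2 scale, against 1.25 over all genes.

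Other genes of ribosome synthesis were also scarce in IMR32 alone. Cytosolic ribosomal proteins, the parts that these factors assemble, had median gRNA levels of -1.39 and -1.41 over 344 gRNAs, with 45.9% of them low. The RNA exosome, which trims the precursors, had -0.98 and -1.20 over 44 gRNAs, with 25.0% low. A further list of 102 ribosome assembly genes had -0.80 and -0.98 over 408 gRNAs, with 20.6% low. The 30.4% of low gRNAs among the 28 genes lay between the ribosomal proteins and the other lists. The differences between lists were not tested.

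The comparisons between conditions asked whether gRNAs to an assembly factor changed in frequency with lymphocytes or with PD-1 blockade. A gene score per donor was the median over its gRNAs of the log2 ratio within that donor, and a gene was called when its score was more than 2 SD from the mean of all genes in both donors. The limma test used all 6 libraries and adjusted p-values over all 19364 genes. The 3 comparisons share libraries, so that their values are not independent of each other. The 2 libraries of a condition come from separate screens, so that the spread between them holds the difference between the donors and the screens.

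Between coculture and IMR32 alone, no assembly factor passed limma. It called 0 of the 28 genes and 0 of all genes (0.0%), and at an unadjusted p under 0.05 it gave 1 of the 28 against 1.20% of all genes. That gene was IMP4, at a log2 fold change of -0.30 (95% interval -0.58 to -0.03, limma unadjusted p = 0.033, adjusted p = 1.00). The gene score did not show this for IMP4, with 0.08 in donor 1 and -0.09 in donor 2. The gRNA ratios behind the score were 0.01, 0.15, -0.33 and 0.40 in donor 1 and -0.70, 0.53, -0.48 and 0.31 in donor 2, so the gRNAs of IMP4 did not move together. By the score in both donors, 0 of the 28 genes were below the cut-off (0.0826% of all genes) and 0 above it (0.124%).

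The lowest mean scores in coculture against IMR32 alone were those of RRP9, UTP3 and NOB1. RRP9 had scores of -0.32 in donor 1, below the cut-off of -0.23, and -0.19 in donor 2, above the cut-off of -0.24. Its log2 fold change in limma was -0.15 (95% interval -0.57 to 0.27). UTP3 moved in opposite directions, with 0.11 in donor 1 and -0.40 in donor 2. NOB1 had -0.09 and -0.20. The highest were UTP15 (0.40 and 0.23), UTP18 (0.23 and 0.16) and NOP2 (0.16 and 0.19). UTP15 was above the upper cut-off in donor 1 (0.21) but not in donor 2 (0.25), and its limma log2 fold change was 0.20 (95% interval -0.08 to 0.47). All 4 of its gRNAs had a ratio above 0 in donor 1 and 3 did in donor 2. For UTP18 the limma log2 fold change was 0.24 (95% interval -0.06 to 0.54) and for NOP2 it was 0.23 (95% interval -0.05 to 0.51). Counted by donor, the genes below the cut-off were RRP9 alone in donor 1 (2.51% of all genes) and UTP3 alone in donor 2 (2.44%), and those above it were UTP15 and UTP18 in donor 1 (2.22%) and NOP56 in donor 2 (2.36%). The score was below 0 in both donors for 6 of the 28 genes (25.8% of all genes) and above 0 in both for 7 (24.2%), so that the list had no shared direction. Over the 28 genes the median score was 0.01 in donor 1 and -0.01 in donor 2, and over all genes it was -0.01 and 0.00.

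Coculture with nivolumab against IMR32 alone gave 1 call by the score. Here the scores of the 28 genes had SDs of 0.126 and 0.154 in donors 1 and 2, against 0.113 and 0.120 over all genes. UTP23 was above the upper cut-off in both donors, with 0.25 and 0.26 against cut-offs of 0.22 and 0.24, as 0.0981% of all genes were, and 0 of the 28 were below the lower cut-off in both (0.0878% of all genes). Its gRNA ratios were 0.17, -0.39, 0.33 and 0.37 in donor 1 and 0.44, 0.08, 0.44 and 0.05 in donor 2. The limma log2 fold change of UTP23 was 0.12 (95% interval -0.14 to 0.38), and limma called 0 of the 28 genes and 0 of all genes (0.0%). At an unadjusted p under 0.05 it gave 1 of the 28 against 1.27% of all genes. This was PES1, with a log2 fold change of 0.33 (95% interval 0.05 to 0.62, limma unadjusted p = 0.027, adjusted p = 1.00).

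PES1 had scores of 0.28 in donor 1, above the cut-off, and 0.08 in donor 2. PES1_2 and PES1_3 carried this, with ratios of 0.60 and 0.57 in donor 1 and 0.36 and 0.65 in donor 2. PES1_4 had -0.23 and -0.19, and PES1_1, the gRNA at the olfactory receptor median, had 0.00 and -0.27. With the second lowest gRNA the scores of PES1 were -0.001 and -0.19. Without gRNAs under 300 normalized reads they were 0.30 and 0.04, and with the mean over gRNAs 0.23 and 0.14. NOP16 was also among the 3 highest, with 0.07 and 0.43, the latter beyond the cut-off of donor 2. The lowest mean scores were those of FCF1 (-0.21 and -0.16), UTP3 (-0.03 and -0.22) and IMP3 (-0.20 and -0.04), none of them below a cut-off. Their limma log2 fold changes were -0.14, -0.18 and -0.12, and each of the 95% intervals included 0. By donor, 0 of the 28 were below the cut-off in donor 1 (2.64% of all genes) and 0 in donor 2 (2.34%). Above it were UTP23 and PES1 in donor 1 (2.22%) and UTP23, NOP16, FBL and NOP56 in donor 2 (2.36%). The score was below 0 in both donors for 10 of the 28 genes (25.5%) and above 0 in both for 9 (24.7%). The median score of the 28 genes was -0.01 in donor 1 and 0.04 in donor 2, against 0.00 and 0.00 over all genes.

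Coculture with nivolumab against coculture, the effect of the antibody, gave FCF1 as its only call by the score. FCF1 had scores of -0.29 in donor 1 and -0.28 in donor 2, below cut-offs of -0.21 and -0.24, and ranked 99 and 229 from the lowest of 19364 genes. Below both cut-offs were 1 of the 28 genes and 0.134% of all genes, and above both upper cut-offs 0 of the 28 and 0.062%. The scores of the 28 genes had SDs of 0.146 and 0.149 in donors 1 and 2, against 0.109 and 0.118 over all genes. The share over all genes is thus not a like background for them. The gRNA ratios of FCF1_1 to FCF1_4 were -0.08, -0.39, -0.20 and -0.43 in donor 1 and 0.08, -0.50, -0.15 and -0.42 in donor 2. FCF1_2 and FCF1_4 thus had negative ratios of similar size in both donors, and FCF1_1, the most abundant of the 4, was near 0. This call was known when the list was chosen, so that it is no independent support. FCF1 did not pass limma, with a log2 fold change of -0.19 (SE 0.10, 95% interval -0.42 to 0.03, unadjusted p = 0.087, adjusted p = 1.00). With the mean over gRNAs the scores were -0.276 and -0.246 against cut-offs of -0.216 and -0.248, so that FCF1 missed the cut-off of donor 2 narrowly. Without gRNAs under 300 normalized reads they were -0.236 and -0.207 against -0.214 and -0.245. In both cases 0 of the 28 genes were below both cut-offs.

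UTP18 and UTP15 had the next lowest mean scores with nivolumab against coculture. UTP18 had -0.20 and -0.19, close to but not past the cut-offs, and a limma log2 fold change of -0.24 (95% interval -0.54 to 0.06). UTP15 had -0.24 and -0.07, below the cut-off in donor 1 only. Both genes were among the highest in coculture against IMR32 alone, and the 2 comparisons share the coculture libraries. In nivolumab against IMR32 alone, which does not use those libraries, UTP18 had -0.01 and 0.13 and UTP15 had -0.03 and 0.11.

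The highest mean scores with nivolumab against coculture were those of PES1 (0.21 and 0.35), RRP9 (0.16 and 0.12) and FBL (0.07 and 0.18). PES1 was above the upper cut-off in donor 2 (0.23) and not in donor 1 (0.23). Without gRNAs under 300 normalized reads its scores were 0.21 and 0.06, and with the mean over gRNAs they were 0.09 and 0.28. With the second lowest gRNA they were 0.18 and 0.21. The comparison of PES1 with IMR32 alone used the same nivolumab libraries, so it is no separate support. Its log2 fold change was 0.31 (95% interval 0.03 to 0.60, limma unadjusted p = 0.034, adjusted p = 1.00), the only 1 of the 28 at an unadjusted p under 0.05, against 0.966% of all genes. All 4 gRNAs of RRP9 had ratios above 0 in both donors, between 0.08 and 0.33. In limma 0 of the 28 genes and 0 of all genes (0.0%) were called. In donor 1, 4 of the 28 genes were below the cut-off (FCF1, UTP3, UTP15 and NOP9), against 2.45% of all genes, and in donor 2 it was 1 (FCF1), against 2.52%. UTP3 and NOP9 had the opposite sign in donor 2, at 0.15 and 0.18. Above the upper cut-off were 0 in donor 1 (2.44%) and PES1 in donor 2 (2.44%). The score was below 0 in both donors for 7 of the 28 genes (24.2%) and above 0 in both for 8 (25.2%).

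The ratios of these gRNAs were more spread out than those of all gRNAs. Over the 112 gRNAs the log2 ratios within a donor had an SD of 0.24 to 0.36, against 0.22 to 0.25 over all gRNAs. Counting error alone gave a median SD of 0.09 to 0.10 for the 112 gRNAs, and 0.07 over all gRNAs. Reads that share a molecule are not independent, so these counting errors are lower bounds. In limma the median standard error of the 28 genes was 0.12, against 0.09 for all genes, and the median 95% interval reached 0.27 to either side. With the replicate number as a block both standard errors were 0.08 and the interval reached 0.16. The limma test on single gRNAs called 0 of the 112 in each comparison, as it called 0.00129%, 0.00129% and 0.0% of all gRNAs. It gave 3, 4 and 3 of the 112 at an unadjusted p under 0.05, against 1.77%, 1.87% and 1.59% of all gRNAs.

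Since the replicate numbers pair the libraries, limma was also fitted with the replicate number as a block. It again called 0 of the 28 genes after adjustment, but more of them had an unadjusted p under 0.05. In coculture against IMR32 alone these were 4 of the 28 (5.22% of all genes), with IMP4 lower and UTP15, NOP2 and UTP18 higher. The blocked 95% intervals were -0.47 to -0.14 for IMP4, 0.02 to 0.37 for UTP15, 0.07 to 0.39 for NOP2 and 0.09 to 0.39 for UTP18. For IMP4 the scores, which are medians of ratios and not of centred values as in limma, were 0.08 and -0.09. The 2 measures thus differ on IMP4. With nivolumab against IMR32 alone they were 3 of the 28 (5.31% of all genes), with IMP4 lower and NHP2 and PES1 higher. The interval of PES1 was 0.16 to 0.50.

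With nivolumab against coculture the block gave 5 of the 28 at an unadjusted p under 0.05 (4.60% of all genes). UTP18 was lower (95% interval -0.39 to -0.09), as were UTP15 (-0.38 to -0.04), FCF1 (-0.35 to -0.03) and NOP2 (-0.33 to -0.01). PES1 was higher (0.14 to 0.49). The smallest adjusted p of the 28 genes in the blocked limma fits was 0.778, 0.667 and 0.852 in the 3 comparisons. The fold changes themselves are those of the fit without the block.

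The further list of 102 assembly genes gave 0 calls in limma in each comparison. At an unadjusted p under 0.05 it had 0 lower and 1 higher in coculture against IMR32 alone (1.20% of all genes in either direction). With nivolumab against IMR32 alone it had 2 lower and 1 higher (1.27% of all genes), and with nivolumab against coculture it had 0 (0.966%). By the score in both donors NOC4L, a processome protein, and PPAN, a large subunit factor, were above the upper cut-off in coculture against IMR32 alone. They were 2 of the 102 genes, against 0.124% of all genes. PPAN alone of the 102 was above it with nivolumab against IMR32 alone, as 0.0981% of all genes were.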

How the data were processed

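Genomic DNA of 6 libraries was amplified and sequenced by the authors, who name MAGeCK. The deposited values are a signal: reads normalized so that all libraries sum alike. Dividing a library by its smallest step gives whole numbers, which are called reads here. Whether molecular identifiers were collapsed is not given in the sources used here, so the counting errors cover sampling of reads only. The labels and the paper's supplementary methods give harvest on day 5, whereas its main text gives a day more.

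A pseudocount of 1 was used for levels and scores (pandas 2.3.3 and numpy 2.4.6 in Python 3.11.15), which understates changes of scarce gRNAs. The limma test (limma 3.58.1, R 4.3.3) used, per gene and library, the median over gRNAs of log2 values, each gRNA centred on its mean over the libraries, with Benjamini-Hochberg adjustment over all genes at 0.05. It was tested on simulated data. Candidate sites and positions come from GENCODE v44 on GRCh38.

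The members and lists were chosen with earlier results of these data known. All 28 genes are named. Values in every library are given for the 8 lowest and 4 highest genes in IMR32 alone and the 3 lowest and 3 highest mean scores of each comparison. The replicate numbers pair the libraries, since the files name the donor and deviations of same-numbered libraries correlated at 0.53 to 0.54 across gRNAs. No column of values was left out.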

Additional observations from a re-analysis of the deposited data

How the results depend on the processing

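The median level of the 112 gRNAs in IMR32 alone (-1.15 as the mean of both libraries) was -1.07 with a pseudocount of 50, -1.06 against the mean of the olfactory receptor gRNAs and -1.02 without gRNAs under 300 normalized reads. With the 1st percentile of the olfactory receptor gRNAs as the limit, 4 of the 112 gRNAs (3.57%) were low in place of 34, against 1.58% of all gRNAs. Leaving out a library of IMR32 alone gave 37 to 45 low gRNAs (9.75% and 10.4% of all gRNAs) and a median of -1.19 to -1.11. For the genes called by the score in both donors, the mean over gRNAs gave 2 above the upper cut-off in coculture against IMR32 alone (UTP15 and UTP18; 30 of all 19364 genes), and the second lowest gRNA gave 1 (UTP15; 16 of all genes). With nivolumab against IMR32 alone, UTP23 was lost, leaving 0 above the cut-off, with a pseudocount of 50, without gRNAs under 300 reads, with the mean and with the second lowest gRNA, and the last put 1 gene (FCF1; 31 of all genes) below. With nivolumab against coculture, 0 genes were below both cut-offs without gRNAs under 300 reads and with the mean, and 2 with the second lowest gRNA (FCF1 and UTP18; 31 of all genes). The limma count of the 28 genes was 0 in all 3 comparisons under each alternative, and 0 to 0 when any library was left out. With the replicate number as a block, limma called 1, 0 and 0 of all genes in the 3 comparisons and 0 of the 28, whose smallest adjusted p was 0.778, 0.667 and 0.852, while the number of the 28 at an unadjusted p under 0.05 went from 1 in each comparison to 4, 3 and 5. Of 363 values under an alternative, 334 were labelled as kept and 29 as moved. For limma fold changes of single genes the label followed only the call at 0.05, so that their size and sign were not compared. Since 0 of the 28 genes passed limma in any setting, these values could only be labelled as kept. The 334 therefore do not measure how stable the results are. The median limma log2 fold change of the 28 genes in coculture against IMR32 alone was -0.01. Without coculture replicate 1 it was -0.11, and without coculture replicate 2 it was 0.09. The count tests planned with edgeR and DESeq2 were not run, because the deposited values are not counts and 4 of the 6 libraries hold too few low values to check the step. The depth limits single gRNAs such as UTP15_3, with 19 to 164 reads.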
